A study of Mus musculus with 80 samples.

Results

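Livers of Adamts12 knockout mice taken 7 days after carbon tetrachloride (CCl4) were set against livers of knockout mice that had received only vehicle. The members are the 10 livers labelled with this genotype and day, 5 after CCl4 and 5 after vehicle, of 80 livers in the series. All mice of the series were C57BL/6J females of 8 weeks at treatment, either Adamts12-/- or wild type, and the extent of the Adamts12 deletion is not stated in the labels. CCl4 was a single intraperitoneal dose of 0.3 ml per kg body weight, diluted to 3% by volume in olive oil, and vehicle was olive oil alone. Wild-type livers of 7 days (5 after CCl4 and 5 after vehicle) and knockout livers of 24 h and 4 h (5 and 5 at each time) are used for comparison. Each value is a gene's read count in a liver after division by that library's size factor, called normalized counts here.

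Adamts12 encodes a secreted metalloproteinase with thrombospondin motifs that acts on proteins of the extracellular matrix. CCl4 is converted to a reactive radical by cytochrome P450 enzymes, chiefly Cyp2e1, in the hepatocytes around the central vein. These cells die within a day or so, the surviving hepatocytes divide, stellate cells lay down matrix for a time, and after a single dose the lobule is largely rebuilt within days. A liver of day 7 would therefore be late in repair. The question put to these data is which transcripts of a liver without Adamts12 differed from the level of vehicle livers on that day. Whether such a difference is left over from the injury was not tested.

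Recovered depth was 25.1 to 58.9 M reads in the knockout CCl4 livers and 18.6 to 50.6 M reads in the knockout vehicle livers, of which replicates 2 and 3 were the shallowest. The log2 values of any 2 of the 10 livers correlated at 0.950 to 0.989 over genes. Vehicle replicates 3, 4 and 5 correlated on average more with the CCl4 livers than with the other vehicle livers. The hepatocyte product Alb had 2874860 to 4107060 normalized counts in knockout CCl4 livers and 2972180 to 4894540 in knockout vehicle livers. No marker that defines Kupffer, endothelial, stellate, biliary, lymphoid or red blood cells was called at 7 days in the test used here.

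Adamts12 was scarce in every knockout liver. It had 5.64, 5.03, 3.87, 6.43 and 12.0 normalized counts in knockout CCl4 livers, against 4.34, 9.41, 3.32, 5.92 and 6.55 in knockout vehicle livers. The wild-type livers had 14.6, 15.7, 5.89, 28.7 and 32.6 after CCl4 and 21.7, 35.3, 14.2, 12.2 and 8.48 after vehicle. The genotypes overlapped within each treatment. Over both treatments the log2 difference of knockout minus wild type was -1.35 ± 0.31 (SE, 10 and 10 livers), and with limma the adjusted p over all genes was 0.18. Without wild-type CCl4 replicate 3 that adjusted p was 0.0467, and over the alternatives tried it ran between 0.0467 and 0.434. With a pseudocount of 8 the difference was -0.85. Within the knockout, CCl4 minus vehicle was 0.12 ± 0.43 (limma adjusted p = 0.934).

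Of 14210 genes tested, 15 differed between knockout CCl4 and knockout vehicle livers at 7 days (0.106% of all tested; limma, Benjamini-Hochberg adjusted p under 0.05). Of these 8 were higher in the CCl4 livers (0.0563%) and 7 were lower (0.0493%). In knockout livers of 24 h the same test called 5264 of 14289 genes (36.8%), and at 4 h it called 45.6%. Without adjustment, 1138 genes were higher at 7 days with p under 0.05 (8.01%) and 966 were lower (6.8%). The 5 CCl4 values lay above all 5 vehicle values for 161 genes (1.13%) and below them for 274 genes (1.93%). The list of 15 depended on single livers. Leaving out 1 liver gave 39 genes without CCl4 replicate 3, 3 without CCl4 replicate 2, 0 without CCl4 replicate 4 and 6 without CCl4 replicate 5, and among vehicle livers 5 without replicate 2, 9 without replicate 4 and 3 without replicate 5. With voom weights on the recovered reads 13 genes were called (0.0915%), all among the 15. With the spread of all 80 livers 55 genes were called, 9 of them among the 15, and the other 6, Oat, Cyp2f2, Slc22a3, Fgd1, Entpd2 and Gm34333, had limma adjusted p between 0.0739 and 0.443. That fit pools all times, and its median SD within groups was 0.365 log2 units, against 0.293 in the 20 livers of 7 days. Quantile normalization called 8 genes, of which 37.5% were higher, against 53.3% of the 15.

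**Figure D1:**
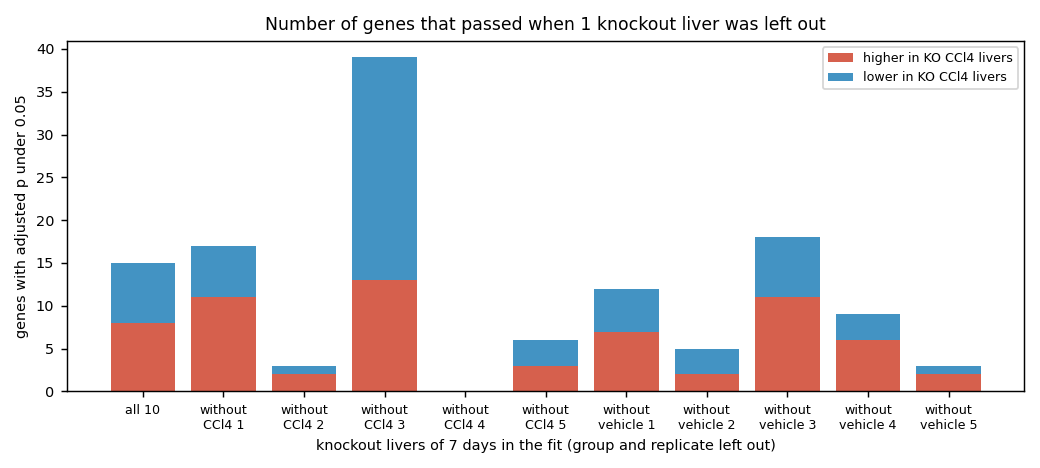
Number of genes with an adjusted p under 0.05 in the comparison of knockout CCl4 with knockout vehicle livers at 7 days (vertical axis), with all 10 knockout livers and after leaving out each one, split into genes higher and lower in the CCl4 livers. The bars run between 0 (without CCl4 replicate 4) and 39 (without CCl4 replicate 3).

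Of the listed pericentral and periportal hepatocyte genes, 1 in each list was called. Oat, the pericentral ornithine aminotransferase, had 18254, 10817, 20915, 14951 and 18849 normalized counts in knockout CCl4 livers, against 45219, 28686, 34970, 32043 and 76404 in knockout vehicle livers. All CCl4 livers lay below all vehicle livers. The log2 difference was -1.32 ± 0.22 (SE, 5 and 5 livers; limma adjusted p = 0.021), and it was called in 8 of 10 fits that left out 1 knockout liver (not without CCl4 replicate 2 or 4). Cyp2f2, a cytochrome P450 of periportal hepatocytes, had 49904, 56492, 44437, 53722 and 53399 normalized counts in knockout CCl4 livers, against 33336, 30401, 37773, 33169 and 35681 in knockout vehicle livers. The groups did not overlap, and 4 of the 5 CCl4 values were above those of all 75 other livers of the series. The difference was 0.60 ± 0.11 (limma adjusted p = 0.0278), a fold of 1.51. Leaving out 1 liver, it was called only without CCl4 replicate 1 or 3 or vehicle replicate 3.

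The other genes of the zones stayed under the threshold. Of 24 pericentral genes tested Oat alone was called, 2 were lower and 2 higher at an unadjusted p under 0.05, and the median log2 difference was -0.13, against -0.000757 over all tested genes. Without vehicle replicate 5 that median was 0.03. Slc1a2, the glutamate transporter of the cells next to the central vein, averaged 3140 ± 506 normalized counts in knockout CCl4 livers and 5738 ± 2211 in knockout vehicle livers (SD, n = 5 each; log2 difference -0.80 ± 0.21, limma adjusted p = 0.103). Glul, the glutamine synthetase of the same cells, had 9660 to 28814 normalized counts after CCl4 and 15216 to 48644 after vehicle, with overlap (-0.52 ± 0.31, limma adjusted p = 0.457). For Cyp2e1, the enzyme that activates CCl4, the difference was -0.10 ± 0.24 (limma adjusted p = 0.893), and its sign changed with quantile normalization and without vehicle replicate 5. The Wnt targets Tbx3 (0.87 ± 0.27) and Axin2 (0.64 ± 0.23), both pericentral, were at positive differences with limma adjusted p of 0.162 and 0.215. Of 20 periportal genes Cyp2f2 alone was called, with a median difference of -0.08 over the list and 0.02 after quantile normalization. At 24 h after CCl4 in the knockout, 18 of 24 pericentral genes and 10 of 20 periportal genes were called lower, against 19.3% of all genes tested at that time. Of 29 drug-metabolizing cytochromes P450 0 were called at 7 days by limma or with voom weights, with 5 lower at an unadjusted p under 0.05. Among all tested genes 6.8% were lower and 8.01% higher at that p.

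Among genes of transport and signalling, Slc22a3, an organic cation transporter, had 24.0, 19.5, 31.9, 33.3 and 60.5 normalized counts in knockout CCl4 livers, against 169.3, 69.6, 176.2, 111.8 and 256.9 in knockout vehicle livers. The highest CCl4 liver was still below the lowest vehicle liver, and the log2 difference was -2.15 ± 0.36 (limma adjusted p = 0.021). Ptprt, a receptor-type tyrosine phosphatase, had 4.23, 11.7, 11.6, 7.01 and 5.99 normalized counts after CCl4 and 24.3, 22.6, 39.9, 23.7 and 34.2 after vehicle in the knockout. These groups did not overlap either (-1.76 ± 0.28, limma adjusted p = 0.0155). Both genes had been called lower at 24 h too, Slc22a3 at -4.19 ± 0.69 and Ptprt at -2.33 ± 0.52, as had Oat at -1.90 ± 0.16. Without 1 liver at 7 days, Slc22a3 was called in 7 of 10 fits (not without CCl4 replicate 2 or 4 or vehicle replicate 5) and Ptprt in 8 (not without CCl4 replicate 4 or vehicle replicate 5).

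Gpr12, an orphan G protein-coupled receptor, had the largest rise among the called genes. It had 40.9, 124.5, 49.3, 77.7 and 91.1 normalized counts in knockout CCl4 livers, against 13.9, 7.53, 8.31, 1.48 and 13.8 in knockout vehicle livers, and 3 of the 5 CCl4 values were above those of all 75 other livers. The difference of 3.09 ± 0.45 on the scale of log2 of the value plus 1 (limma adjusted p = 0.0131) was called in each fit that left out 1 liver except that without CCl4 replicate 4. With a pseudocount of 8 it was 2.285. In the knockout vehicle livers 1 read is 0.728 to 1.88 normalized counts, so the lowest vehicle values rest on few reads. Gm34333, a long noncoding RNA gene, lies next to Gpr12 on chromosome 5 and on the same strand (GRCm38; Gm34333 at 146586645 to 146600102 and Gpr12 at 146582398 to 146585239). It had 46.6, 65.9, 56.0, 49.1 and 73.8 normalized counts after CCl4 and 39.1, 5.64, 6.65, 9.62 and 16.7 after vehicle (2.16 ± 0.40, limma adjusted p = 0.0313). With a pseudocount of 8 the difference of Gm34333 was 1.64. It was called in 3 of 10 fits without 1 liver, those without CCl4 replicate 1 or 3 or vehicle replicate 1. Neighbours on one strand can share reads that run past a gene's end, so the pair is not counted as independent evidence.

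Smaller rises were those of 3 genes with other roles. Fgd1, an exchange factor that activates the small GTPase Cdc42, had 179.2, 168.6, 132.4, 156.5 and 185.6 normalized counts in knockout CCl4 livers, against 73.8, 84.7, 84.8, 120.7 and 76.4 in knockout vehicle livers. The groups were apart (0.91 ± 0.15, limma adjusted p = 0.021), and Fgd1 was also called higher at 24 h (0.98 ± 0.23). Entpd2, an ectoenzyme that hydrolyses extracellular ATP, had 74.8, 90.5, 73.4, 64.8 and 96.4 normalized counts after CCl4 and 46.9, 45.2, 34.9, 31.8 and 53.1 after vehicle in the knockout, without overlap (0.91 ± 0.17, limma adjusted p = 0.038). Sh3d21, which encodes a protein with SH3 domains, averaged 77.5 ± 18.0 normalized counts in knockout CCl4 livers and 33.3 ± 8.65 in knockout vehicle livers (SD, n = 5 each; 1.20 ± 0.21, limma adjusted p = 0.0249). Neither Entpd2 nor Sh3d21 was called at 24 h. Of 10 fits that left out 1 liver, Fgd1 was called in 5 (not without CCl4 replicate 2, 4 or 5 or vehicle replicate 2 or 5), Sh3d21 in 5 (not without CCl4 replicate 2 or 4 or vehicle replicate 1, 2 or 5) and Entpd2 in 1, that without CCl4 replicate 3.

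For 3 of the 15 genes, Zfp429, Gm46620 and Cdk5rap1, most of the knockout vehicle livers stood apart from the rest of the series. Zfp429, a zinc finger protein gene on chromosome 13, had 52.2, 63.1, 44.5, 71.8 and 53.9 normalized counts in knockout CCl4 livers, against 42.5, 3.76, 4.99, 3.70 and 5.82 in knockout vehicle livers. Vehicle replicates 2 to 5 were below all 75 livers outside their group, whose lowest value was 22.1, while replicate 1 was not. Without CCl4 replicate 4 Zfp429 was not called, and it was in the 9 other fits that left out 1 liver. The log2 difference of CCl4 minus vehicle was 2.79 ± 0.42 (limma adjusted p = 0.0131). Between the vehicle groups, knockout minus wild type was -2.94 ± 0.42 (limma adjusted p = 0.0119), and between the CCl4 groups it was 0.15 ± 0.42 (limma adjusted p = 0.928). These 2 genotype contrasts were added after the values had been seen. Here and for Gm46620 and Gm10037 below, the contrast within vehicle uses the same knockout vehicle livers as CCl4 minus vehicle. It is therefore not separate support for a difference.

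Gm46620, a long noncoding RNA gene on chromosome 18, had 91.7, 32.4, 35.8, 36.2 and 19.95 normalized counts in knockout CCl4 livers, against 89.4, 385.7, 151.3, 431.6 and 313.0 in knockout vehicle livers. Vehicle replicates 2 to 5 were above all 75 livers outside their group, whose highest value was 117.2 (CCl4 minus vehicle -2.60 ± 0.45, limma adjusted p = 0.0225; knockout minus wild type within vehicle 2.91 ± 0.45, limma adjusted p = 0.0134). Replicate 1 of the vehicle livers overlapped the CCl4 livers for this gene. Cdk5rap1, which modifies mitochondrial tRNAs, had 438.9, 236.2, 336.3, 245.3 and 280.7 after CCl4 and 655.4, 1001, 425.6, 1016 and 1029 after vehicle in the knockout. Vehicle replicates 2, 4 and 5 were above all 75 livers outside their group (-1.38 ± 0.25, limma adjusted p = 0.0278), and replicate 3 overlapped the CCl4 livers. Gm46620 and Cdk5rap1 were each called in 4 of 10 fits without 1 liver, those without CCl4 replicate 1 or 3 or vehicle replicate 1 or 3.

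Gm10037, annotated as protein coding and also on chromosome 13, had 8.47, 20.7, 18.4, 19.3 and 22.0 normalized counts in knockout CCl4 livers, against 6.08, 3.76, 3.33, 6.66 and 2.91 in knockout vehicle livers (1.74 ± 0.31, limma adjusted p = 0.0225). These vehicle values rest on few reads, and with a pseudocount of 8 the difference was 1.02. Within vehicle, knockout minus wild type was -1.90 ± 0.31 (limma adjusted p = 0.0134), and at 24 h Gm10037 was called in the other direction (-2.02 ± 0.37). It was called in 5 of 10 fits at 7 days without 1 liver, and not without CCl4 replicate 2, 4 or 5 or vehicle replicate 2 or 5. Over all genes, knockout and wild type differed in 5 genes within vehicle livers of 7 days (0.0352%) and in 1 within CCl4 livers (0.00704%). Among the 5 were Zfp429, Gm46620 and Gm10037, which had already been called through the same knockout vehicle livers. The 5 vehicle values of Zfp429 rest on 49, 2, 3, 5 and 8 recovered reads, and with a pseudocount of 8 its CCl4 difference was 1.96. Zinc finger genes of chromosome 13 form a cluster of similar sequences, and how reads shared between copies were counted is not given in the sources used here.

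**Figure D2:**
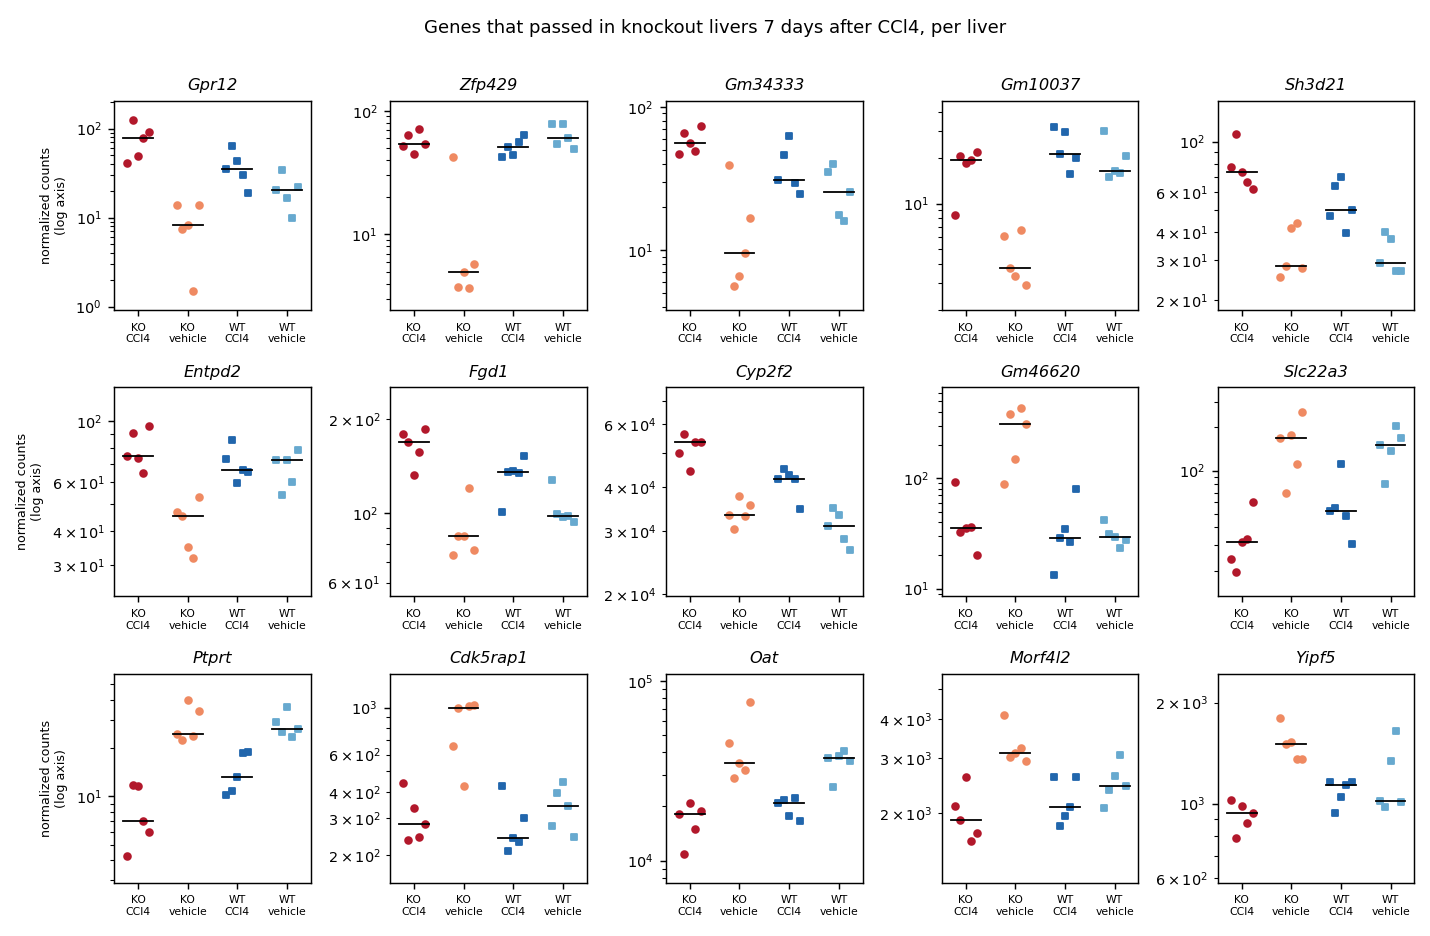
Normalized counts on a log axis for the 15 called genes in every liver of 7 days, with knockout CCl4, knockout vehicle, wild-type CCl4 and wild-type vehicle livers from left to right (points are livers, lines are group medians). The knockout vehicle livers lie apart from the other 3 groups for Zfp429, Gm46620 and Cdk5rap1 in all but 1 or 2 livers, while for Oat, Slc22a3 and Ptprt the wild-type groups lie on the same sides as the knockout groups.

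The last pair of called genes, Yipf5 and Morf4l2, had moved the other way early on. Yipf5, a membrane protein of traffic between the endoplasmic reticulum (ER) and the Golgi, had 1026, 787.9, 985.6, 873.8 and 937.2 normalized counts in knockout CCl4 livers at 7 days, against 1800, 1505, 1529, 1358 and 1358 in knockout vehicle livers. The groups did not overlap (-0.71 ± 0.13, limma adjusted p = 0.0313), and 3 of the 5 CCl4 values were below those of all 75 other livers. At 4 h Yipf5 was called higher (1.12 ± 0.13). Morf4l2, a subunit of chromatin-modifying complexes, had 2114, 1906, 2612.9, 1633 and 1729 after CCl4 and 4121, 3034, 3134, 3244 and 2949 after vehicle (-0.73 ± 0.14, limma adjusted p = 0.0409). It was called higher at 4 h (1.14 ± 0.16) and at 24 h (0.55 ± 0.17). Without 1 liver, Yipf5 was called in 2 of 10 fits, those without CCl4 replicate 1 or 3, and Morf4l2 in 1, that without CCl4 replicate 3.

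At 24 h 8 of the 15 genes were called in the knockout, 6 in the direction of day 7 and 2, Gm10037 and Morf4l2, in the other, while 36.8% of all genes were called at that time. Each time has its own CCl4 and vehicle livers, so the values at 4 h, 24 h and 7 days share no animal.

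**Figure D3:**
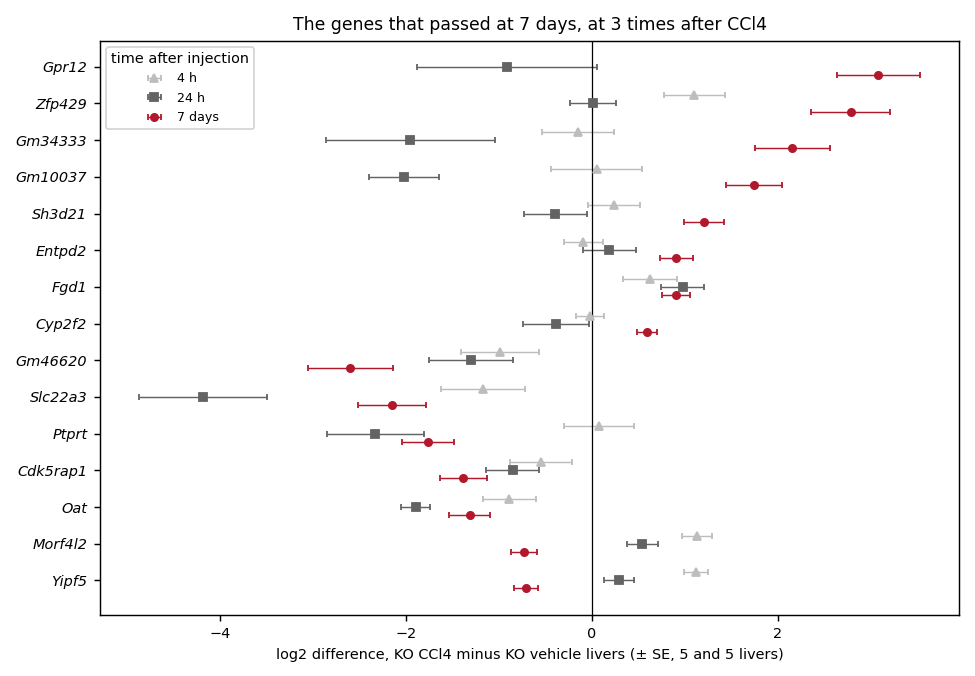
Log2 difference of knockout CCl4 minus knockout vehicle livers (horizontal axis, with SE, 5 and 5 livers at each time) for the genes called at 7 days, at 4 h, 24 h and 7 days. Oat and Slc22a3 were lower at all 3 times and Yipf5 and Morf4l2 were higher at 4 h, while Gpr12 did not pass the filter on low values at 4 h and has no point there.

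Genes of the unfolded protein response, by which a cell with a loaded ER raises its chaperones, were at negative differences for 16 of 22 members, none of which passed the test. Among all tested genes 50.1% were at negative differences. Such genes vary together, so their signs are not independent. The sensors ATF6 and IRE1 act through the ER stress response elements of chaperone promoters, and the kinase PERK acts through ATF4 on genes of amino acid supply and of stress. Of 22 listed genes tested 0 were called by limma, and 10 were lower at an unadjusted p under 0.05, against 6.8% of all tested genes. With voom weights 0 were called as well. The spread of the 10 knockout livers alone gave 2 called members, both lower, of 14 genes called in all. That of all 80 livers gave 3, all lower, of 55 called in all. At 24 h 5 of the 22 were called higher and 2 lower, against 17.5% and 19.3% of all genes tested then. The median log2 difference of the list was -0.39 in the knockout and -0.22 without CCl4 replicate 4, and leaving out 1 liver gave at most 1 called gene, without CCl4 replicate 3. Summed over the list, knockout CCl4 livers had 113341, 115050, 146549, 89629 and 101893 normalized counts, against 165076, 170643, 230461, 171216 and 156682 in knockout vehicle livers. It was 1 of 2 lists among 44 whose summed level did not overlap between the groups, both of them lower after CCl4.

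The promoters of 20 of these 22 genes are in the RefSeq table (GRCm38.p6), as windows of 250 bases before and 50 after each start. An ER stress response element, searched on both strands as CCAAT, 9 bases of any kind and CCACG, was in 6 of the 20. The related element II, ATTGG, 1 base of any kind and CCACG, was in 2 others, against 0.119% and 0.0365% of 32851 promoters. Differences of the 8 genes with either element ran between -1.61 and -0.21, with a median of -0.63, and those of the 12 without ran between -0.97 and 0.31, with a median of -0.08. The 12 are Atf4, Ddit3, Atf3, Trib3, Ppp1r15a, Sesn2, Chac1 and Asns of the ATF4 side, and Sdf2l1 (-0.97), Pdia4 (-0.76), Dnajb9 (-0.72) and Xbp1 (-0.22). The listed genes were chosen as members of this response, so neither the share of elements nor the split tests a link between element and difference. The 130 bases before the start are shown for 3 of the 8 genes with an element, which is in capitals. They show the site in the member with the best known element (Hspa5), in the one with the largest difference of the list (Creld2) and in the one with the smallest difference among the 8 (Herpud1). The element lies 65 to 47 bases before the start of Hspa5, 126 to 108 bases before that of Creld2, where it reads on the opposite strand, and 52 to 42 bases before that of Herpud1. All 3 genes are on the plus strand, Hspa5 at chr2:34771960-34772089, Creld2 at chr15:88819516-88819645 and Herpud1 at chr8:94386299-94386428.
Hspa5: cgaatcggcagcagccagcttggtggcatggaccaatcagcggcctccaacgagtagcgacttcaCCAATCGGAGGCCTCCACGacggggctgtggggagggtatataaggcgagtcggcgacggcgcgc
Creld2: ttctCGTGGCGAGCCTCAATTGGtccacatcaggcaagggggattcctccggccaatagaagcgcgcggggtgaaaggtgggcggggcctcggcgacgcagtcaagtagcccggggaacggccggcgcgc
Herpud1: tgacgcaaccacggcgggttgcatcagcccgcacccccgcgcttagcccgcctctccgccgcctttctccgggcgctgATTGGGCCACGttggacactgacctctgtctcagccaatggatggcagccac

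Among the chaperones, Hspa5, the ER member of the HSP70 family whose promoter is shown above, had 13545, 11562, 20746, 11350 and 15852 normalized counts in knockout CCl4 livers, against 33632, 29792, 45790, 35118 and 32165 in knockout vehicle livers. Every CCl4 liver was below every vehicle liver, and the difference was -1.29 ± 0.28 with a limma adjusted p of 0.0758, between 0.0244 and 0.219 over the alternatives. Hyou1, a large ER chaperone, averaged 3699 ± 910 normalized counts after CCl4 and 9964 ± 2805 after vehicle (SD, n = 5 each; -1.42 ± 0.35, limma adjusted p = 0.0965). Manf, a small secreted ER protein, averaged 2031 ± 684 after CCl4 and 4767 ± 951 after vehicle (-1.28 ± 0.36, limma adjusted p = 0.127). When the spread was taken from all 80 livers, these 3 genes were called (0.378% of all genes were called in that fit), while Oat, Cyp2f2, Slc22a3, Fgd1, Entpd2 and Gm34333 were not. That spread includes the livers of 4 h, 12 h and 24 h. With the spread of the 10 knockout livers alone Hspa5 and Hyou1 were called (limma adjusted p = 0.0244 each) and Manf was not (limma adjusted p = 0.0646). At 4 h, in other livers, Hspa5 was called higher in the knockout (2.70 ± 0.23). The listed members on the PERK and ATF4 side of the response had differences in both directions, with limma adjusted p between 0.374 and 0.938. They were 0.09 for Atf4, 0.05 for Ddit3, 0.12 for Atf3, 0.25 for Trib3, 0.11 for Ppp1r15a and 0.31 for Sesn2, and -0.33 for Chac1 and -0.45 for Asns.

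In wild type Hspa5 overlapped between the groups. It had 32050, 16413, 17079, 18123 and 25739 normalized counts in wild-type CCl4 livers and 12059, 17984, 33978, 45779 and 26143 in wild-type vehicle livers, so the wild-type vehicle livers alone spanned nearly the range of both knockout groups. The difference of the CCl4 effects between the genotypes was -1.08 for Hspa5 (limma adjusted p = 0.422). The median over the list was -0.14 in wild type.

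**Figure D4:**
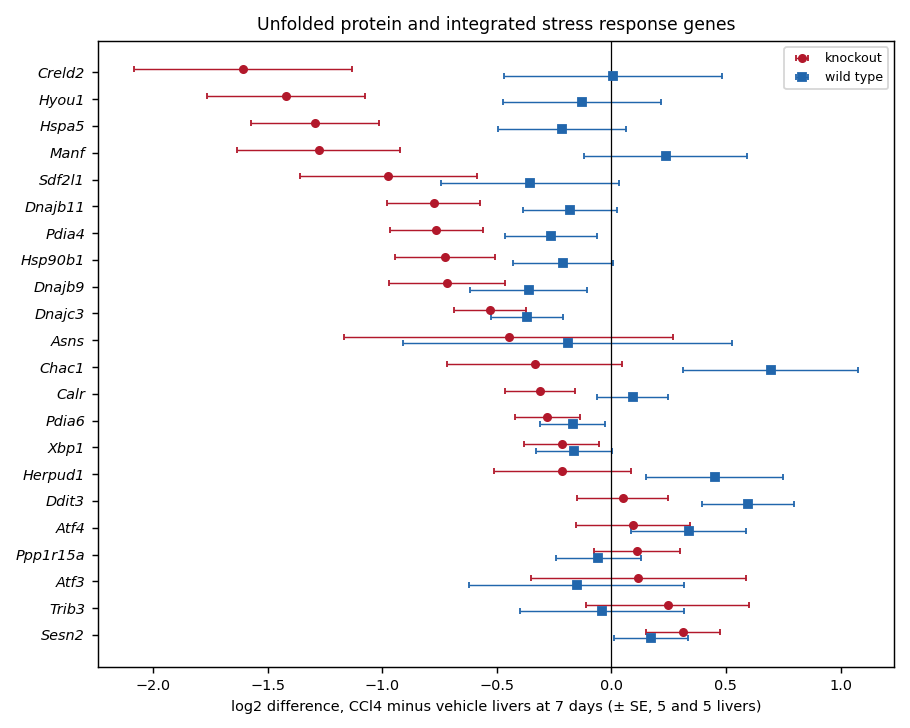
Log2 difference of CCl4 minus vehicle livers at 7 days (horizontal axis, with SE, 5 and 5 livers) for the 22 genes of the unfolded protein and integrated stress response, in knockout and wild-type mice. In the knockout the values run between -1.61 for Creld2 and 0.31 for Sesn2, with 16 of the 22 below 0. Among all tested genes 50.1% were below 0.

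Further genes with a mean of at least 100 normalized counts and no overlap, taken by smallest p after the called ones, did not pass the test. Ssr1, a subunit of the complex beside the protein translocon, had 2030 to 2968 normalized counts in knockout CCl4 livers and 4112 to 4766 in knockout vehicle livers (-0.81 ± 0.16, limma adjusted p = 0.0563). Sec23b, a coat protein of vesicles that leave the ER, had 614.2 to 1143 after CCl4 and 1607 to 2357 after vehicle (-1.23 ± 0.25, limma adjusted p = 0.0618). Lrrc59, an ER membrane protein that binds ribosomes, Ubxn4, which acts in ER-associated degradation, Hspa13, an ER-associated relative of HSP70, and the vesicle SNARE Sec22b were at -0.89, -0.68, -1.10 and -0.63, with limma adjusted p between 0.0596 and 0.0758. Also lower by this rule were Abce1, which recycles ribosomes, the RNA helicase gene Ddx1, Dennd10 and the chromatin remodeller gene Chd1l, at -0.54, -0.47, -0.51 and -0.46 (limma adjusted p of 0.0659 to 0.0758). Among genes higher by the same rule were Prob1 (0.97 ± 0.20), Gm31583 (1.31 ± 0.27), the ciliary protein gene Evc2 (1.06 ± 0.22), the ephrin receptor gene Epha1 (0.45 ± 0.10) and the creatine transporter gene Slc6a8 (0.81 ± 0.18). Their limma adjusted p lay between 0.0596 and 0.0758. With the spread of the 10 knockout livers alone, Ssr1, Sec23b, Lrrc59, Ubxn4, Hspa13 and Gm31583 were called (limma adjusted p of 0.0244 to 0.0407). Sec22b, Abce1, Ddx1, Prob1, Evc2, Epha1 and Slc6a8 were not called in that fit.

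Of the 44 lists, 42 had no called member by limma, nor did they with voom weights. Tfrc, the transferrin receptor for iron uptake, had 314.7, 323.3, 635.8, 351.0 and 355.9 normalized counts in knockout CCl4 livers, against 1179, 1306, 1257, 1647 and 1045 in knockout vehicle livers. All CCl4 values lay below all vehicle values (-1.73 ± 0.41, limma adjusted p = 0.0958, and 0.00751 to 0.239 over the alternatives). Insig1, an ER membrane protein that holds back sterol synthesis, was at -0.78 ± 0.27 (limma adjusted p = 0.192). Of 25 genes of cholesterol synthesis and uptake 21 were at negative differences, against 50.1% of all tested genes, and 0 were called by limma or with voom weights. At an unadjusted p under 0.05, 3 of them were lower, against 6.8% of all tested genes.

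**Figure D5:**
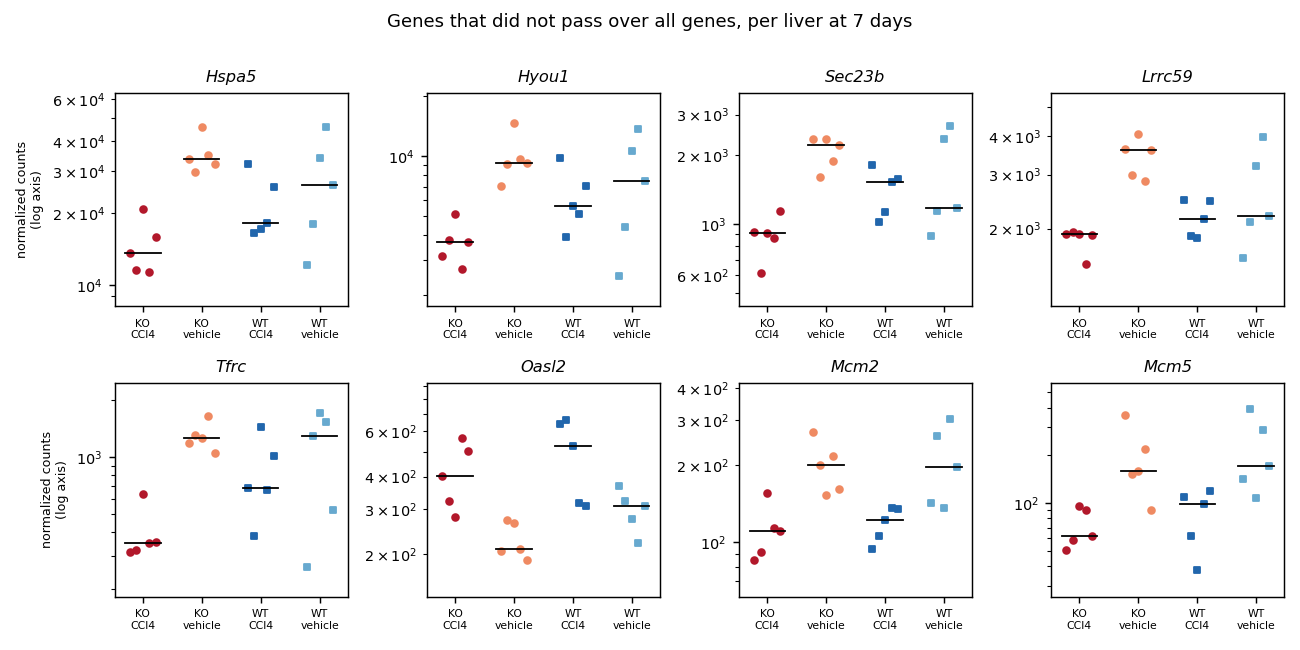
Normalized counts on a log axis for 8 genes that were not called over all genes, in every liver of 7 days, with knockout CCl4, knockout vehicle, wild-type CCl4 and wild-type vehicle livers from left to right (points are livers, lines are group medians). Hspa5, Hyou1, Sec23b, Lrrc59 and Tfrc do not overlap between the knockout groups, and their wild-type vehicle livers spread over most of the range.

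Genes of the cell cycle were mostly at negative differences, with none called. For Mcm2, a subunit of the replicative helicase, knockout CCl4 livers had 84.7, 91.0, 155.6, 113.3 and 110.4 normalized counts, against 270.0, 199.4, 152.9, 217.7 and 160.9 in knockout vehicle livers, with an overlap of CCl4 replicate 3 and vehicle replicate 3 (-0.85 ± 0.22, limma adjusted p = 0.107). Mcm5, of the same complex, averaged 71.3 ± 20.2 after CCl4 and 196.7 ± 103.1 after vehicle (SD, n = 5 each; -1.35 ± 0.38, limma adjusted p = 0.133). Of 30 DNA replication genes 0 were called by limma and 0 with voom weights. At an unadjusted p under 0.05, 9 of the 30 were lower, against 6.8% of all tested genes. At 24 h 19 of them were called higher, against 17.5% of all genes tested then. The median at 7 days was -0.36 in the knockout and -0.51 in wild type. Without the wild-type mice numbered below 7000 it was -0.16 there, a value that rests on 1 CCl4 liver. All 27 mitosis genes tested were at negative differences, with a median of -0.49 and 1 at an unadjusted p under 0.05, Ect2, a regulator of cell division (-1.20 ± 0.40, limma adjusted p = 0.182). Leaving out 1 liver put that median between -0.83 (without vehicle replicate 5) and -0.14 (without vehicle replicate 1). The summed level of these genes was 981 to 1791 normalized counts in knockout CCl4 livers, and 5289, 1815, 1220, 3088 and 740 in knockout vehicle livers, so vehicle replicates 1 and 4 were the high ones. Among all tested genes 50.1% were at negative differences. Genes of 1 programme vary together, so their signs are not independent.

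Genes of stellate cells and of the matrix bear on the tissue in which Adamts12 acts. In whole liver, fewer cells of a type and less RNA per cell cannot be told apart. Of 18 markers of quiescent stellate cells, the vitamin A storing cells of the sinusoid wall, 0 were called by limma or with voom weights. At an unadjusted p under 0.05, 6 were lower and 1 was higher, against 6.8% and 8.01% of all tested genes. The summed level of the 18 markers was 16150 to 19840 normalized counts in knockout CCl4 livers and 19981 to 25958 in knockout vehicle livers, the other list without overlap. Their median difference was -0.36, against -0.08 in wild type. Without the wild-type mice numbered below 7000 it was 0.32 there, a value that rests on 1 CCl4 liver. Colec10, a secreted collectin, averaged 834.0 ± 44.2 after CCl4 and 1251 ± 204 after vehicle (SD, n = 5 each; -0.57 ± 0.17, limma adjusted p = 0.145). Ecm1 (-0.51 ± 0.15) and Dcn (-0.44 ± 0.14), which encode matrix proteins, had limma adjusted p of 0.149 and 0.167.

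Of 19 markers of activated stellate cells and myofibroblasts 0 were called, with a median of 0.01 (-0.05 after quantile normalization), and 1 was lower at an unadjusted p under 0.05. Col1a1, the main fibrillar collagen chain of scar, had 365.5, 395.3, 1167, 380.8 and 619.9 normalized counts in knockout CCl4 livers, against 228.3, 1148, 113.0, 220.6 and 124.5 in knockout vehicle livers. The groups overlapped through vehicle replicate 2, which was as high as the highest CCl4 liver (1.12 ± 0.56, limma adjusted p = 0.36). Of 34 genes of collagens, laminins and other matrix proteins, 24 were at positive differences and 0 were called, with 2 higher and 1 lower at an unadjusted p under 0.05. Of 16 genes of ADAMTS proteases and relatives 0 were called, with 10 at positive and 6 at negative differences. Adamts2, Adamts10, Adamtsl2 and Adamts6 were higher at an unadjusted p under 0.05, by 0.51, 0.54, 0.83 and 0.60. Leaving out 1 liver gave 2 to 5 such genes, and the list median of 0.10 was -0.002 after quantile normalization. Over all tested genes 8.01% were higher and 6.8% lower at that p, and 50.1% were at negative differences. For the TGF-beta family, Inhba, an activin subunit, and Smad7, an inhibitor of the pathway, were at 0.83 ± 0.24 and 0.85 ± 0.28 (limma adjusted p of 0.138 and 0.178), with 0 of 22 genes called and 4 higher at an unadjusted p under 0.05. The metalloproteinase genes Mmp2 (0.90 ± 0.28) and Mmp15 (0.66 ± 0.19) were not called either.

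In other lists of hepatocyte function, Sult2a1, a sulfotransferase of female mouse liver, had 1136, 2773, 2275, 1109 and 345.9 normalized counts in knockout CCl4 livers, against 3459, 9376, 3367, 9545 and 7172 in knockout vehicle livers. The groups did not overlap (-2.28 ± 0.64, limma adjusted p = 0.127). Mup20, a pheromone-binding urinary protein more abundant in males, had 1947 to 9560 after CCl4 and 487.7 to 1520 after vehicle (1.60 ± 0.58, limma adjusted p = 0.213). Of 30 genes that differ between the sexes or answer to growth hormone 0 were called, 5 were lower and 1 higher at an unadjusted p under 0.05. Over all tested genes 6.8% were lower and 8.01% higher at that p, and 50.1% were at negative differences. Of 21 targets of NRF2, the factor of the antioxidant response, 20 were at negative differences and 0 were called, with 4 lower at an unadjusted p under 0.05, among them the glutathione transferase gene Gstm2 (-0.62 ± 0.21). Of 25 interferon-stimulated genes 21 were at positive differences and 0 were called, with 4 higher at an unadjusted p under 0.05. Oasl2, of the oligoadenylate synthetase family, had 403.6, 320.5, 278.3, 562.5 and 500.2 after CCl4 and 206.6, 270.9, 264.3, 210.2 and 190.0 after vehicle in the knockout, without overlap (0.82 ± 0.23, limma adjusted p = 0.13).

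Lists of general cell function were described by their counts in the same way. For comparison, 6.8% of all tested genes were lower and 8.01% higher at an unadjusted p under 0.05, and 50.1% were at negative differences. Of 25 ribosomal protein genes 24 were at negative differences, with a median of -0.16 and 2 lower at an unadjusted p under 0.05. That median was -0.02 without vehicle replicate 1, -0.31 without vehicle replicate 3 and -0.06 after quantile normalization. Heat shock proteins, chaperones of the cytosol, nucleus and mitochondria, were lower at an unadjusted p under 0.05 for 4 of 12 genes. Among 16 transcription factors of hepatocyte identity 13 were at positive differences and 3 were higher at an unadjusted p under 0.05, among them Nr1i3, the nuclear receptor CAR (0.72, limma adjusted p = 0.238). Of 20 targets of p53 4 were higher at an unadjusted p under 0.05. In none of these 4 lists was a gene called by limma or with voom weights. Circadian clock genes, 20 in all, had 0 at an unadjusted p under 0.05 with limma.

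No immune cell marker was called at 7 days. Among Kupffer cell, monocyte, neutrophil, and T and NK cell markers (17, 17, 8 and 18 genes) 0 were called and 0 had an unadjusted p under 0.05 with limma. Knockout vehicle livers varied widely in the summed monocyte markers, with 5790 to 28492 normalized counts, against 5189 to 12450 after CCl4. The median difference of that list was 0.07, and -0.43 to 0.26 without 1 liver. At 24 h in the knockout, 12 of the 17 monocyte and macrophage markers and 13 of 20 cytokine and chemokine genes were called higher, against 17.5% of all genes. Of 10 dendritic cell markers 2 were higher and of 13 B and plasma cell markers 1 was lower at an unadjusted p under 0.05. Among all tested genes 8.01% were higher and 6.8% lower at that p. At 7 days 0 of the 20 cytokine and chemokine genes were called and 1 was higher at an unadjusted p under 0.05.

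In wild-type livers of 7 days 0 of 14210 genes were called between CCl4 and vehicle by limma, with 2514 at an unadjusted p under 0.05 (17.7%), and 0 with voom weights. The mouse numbers of the wild-type groups are mixed, and 4 of the 5 CCl4 mice and 2 of the 5 vehicle mice are numbered below 7000, so number and treatment are partly mixed there. Without these mice 1 wild-type CCl4 liver is left. Number and treatment are partly mixed in the knockout groups of 7 days too. All knockout CCl4 mice except replicate 1 have higher numbers than every knockout vehicle mouse. Whether mouse number goes with the knockout differences was not tested. Of the 15 genes called in the knockout, 13 had a wild-type difference of the same sign. Oat was at -0.83 ± 0.22, Slc22a3 at -1.37 ± 0.36, Ptprt at -0.94 ± 0.28, Sh3d21 at 0.73 ± 0.21 and Cyp2f2 at 0.42 ± 0.11 in wild type, with limma adjusted p between 0.181 and 0.197. Wild-type differences of Zfp429 (-0.30 ± 0.42), Gm46620 (0.03 ± 0.45) and Entpd2 (0.06 ± 0.17) were within about 1 SE of 0.

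The difference between the genotypes was tested directly. It was called for 0 of 14210 genes by limma, with 1612 at an unadjusted p under 0.05 (11.3%), and for 0 with voom weights. Zfp429 had a difference of effects, knockout minus wild type, of 3.09, Gm46620 of -2.63 and Gpr12 of 2.23, each with a limma adjusted p of 0.422. Among genes with a mean of at least 100 normalized counts, the smallest unadjusted p values included those of Sowahb, at 0.51 ± 0.16 in the knockout and -0.56 ± 0.16 in wild type, and of Them4, a thioesterase gene, at -0.42 ± 0.13 in the knockout and 0.44 ± 0.13 in wild type. Both had a limma adjusted p of 0.422 for the difference. Sinusoidal endothelial markers had a median of 0.09 in the knockout (-0.05 to 0.24 without 1 liver) and -0.65 in wild type, where it was -0.26 without CCl4 replicate 3. The mitochondrially encoded transcripts had medians of -0.23 in the knockout and 0.79 in wild type, and 0.41 without that liver.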

How the data were processed

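RNA of 80 livers was sequenced from libraries made with a stranded mRNA kit from 500 ng of total RNA, per the labels' protocols. Per the submitters' processing notes, the authors named STAR, HTSeq and DESeq2 and the build GRCm38, without versions or roles. Whether counting used strand is not given in the sources used here. The deposited table holds normalized signal, read counts divided by a size factor per library, for 14560 genes. In each of the 80 libraries every value was a whole multiple of 1 step (tolerance 0.01), which gave the recovered reads used for depth. Genes were matched to GENCODE M21 (14550 of 14560).

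For the main comparison the 20 livers of 7 days were fitted with limma 3.58.1 in R 4.3.3 on log2 of the value plus 1, with 1 mean per group and a variance trend. A gene was kept when 5 or more livers reached 10 normalized counts (14210 genes). P values are two-sided and adjusted by Benjamini and Hochberg over all genes tested, and called means adjusted p under 0.05. Each SE of a difference comes from this fit, so it pools the spread of all 20 livers, wild type included. Fold changes of scarce genes are understated by the added 1. Livers of 24 h and 4 h were fitted likewise, and those of 12 h entered only the fit of all 80. In earlier results of these data some 12 h knockout libraries stood with the other treatment, and acute groups spread more. The main spread was therefore taken from livers of 7 days. The labels do not say that replicates were separate litters or days, so p values measure the spread between these livers.

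The members, the 44 gene lists (833 symbols, 757 tested) and the tests were chosen with earlier results of these data known. Named genes are Adamts12, called genes with a mean of at least 100 in a knockout group and no overlap of the 5 and 5 values, then further genes with such a mean and no overlap by smallest p up to 15 per direction, up to 4 members per list by adjusted p, 10 by the difference between genotypes, and cell type markers. Of these a part is described. The other called genes, Glul, Cyp2e1, Manf, Creld2, Herpud1 and members of the ATF4 branch were added after their values were seen.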

Additional observations from a re-analysis of the deposited data

Results flagged for a closer look

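For the 67 genes examined, each group of 5 knockout livers of 7 days was searched for a liver whose gap to its neighbour took most of the group's range. For normally distributed values chance alone gives such a value in about 1 in 20 groups, and 10 were found in 134 groups. Here untransformed normalized counts were searched, in genes mostly named by their values in these livers, so that rate does not strictly apply. Among knockout CCl4 livers, Gm10037 was lowest in replicate 1 (8.47 normalized counts, against 18.4 to 22.0 in the others) and Gm46620 was highest in replicate 1 (91.7, against 19.95 to 36.2). Lrrc59 was lowest in CCl4 replicate 4 (1529, against 1913 to 1958), Mup20 was highest in CCl4 replicate 5 (9560, against 1947 to 2311) and Tfrc was highest in CCl4 replicate 3 (635.8, against 314.7 to 355.9).

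Among knockout vehicle livers, replicate 1 was highest for Zfp429 (42.5, against 3.70 to 5.82), for Morf4l2 (4121, against 2949 to 3244) and for Oas1a (191.9, against 101.2 to 117.0). Fgd1 was highest in vehicle replicate 4 (120.7, against 73.8 to 84.8), and Col1a1 was highest in vehicle replicate 2 (1148, against 113.0 to 228.3). No gene passed the test of a difference between the genotypes.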

How the results depend on the processing

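Each of the 15 called genes kept its direction in all 263 values that 18 alternatives gave, and 145 of these had an adjusted p under 0.05. The 15 were chosen by passing in these livers, and 13 had no overlap between groups. For those 13 leaving out a liver could not reverse the direction. The number of genes called between knockout CCl4 and vehicle livers was 14 with a pseudocount of 8, 15 without a filter, 7 with a mean of at least 50, 8 with quantile normalization, 13 with voom weights on recovered reads (chosen after seeing the data), 14 with the spread of the 10 knockout livers alone, 2 of them among the 15, and 55 with that of all 80 livers, 9 of them among the 15. Among the 14 called with the spread of the 10 knockout livers were Hspa5, Hyou1, Sec23b, Lrrc59, Ssr1, Ubxn4, Hspa13 and Tfrc, all lower. The main fit, whose spread includes wild-type livers, did not call these genes. Leaving out each liver gave 0 to 39. For wild type the number was 7 with the spread of all 80 livers and 2 without mice numbered below 7000, where the 1 CCl4 liver left is assumed to vary like the other groups, and 0 to 2 when 1 liver was left out. For the difference between genotypes these were 1, 2 and 0 to 1. The cause was not tested. The Adamts12 difference between genotypes was -1.53 to -1.22 when 1 liver was left out and -0.85 with a pseudocount of 8. Within the knockout, the CCl4 difference of Adamts12 was -0.10 with quantile normalization and -0.10 to 0.28 without 1 liver, and that of Cyp2e1 was 0.082 with quantile normalization and -0.256 to 0.062 without 1 liver (0.062 without vehicle replicate 5). Without vehicle replicate 3 that of Adamts12 was -0.04. At 24 h the spread of all 80 livers called 5978 genes, against 5264.

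The replicate block called 3 genes for the knockout (1 higher and 2 lower), 7 for wild type and 0 for the difference. Same-numbered knockout livers correlated at -0.29 to 0.33 in their deviations, and 1 of 5 correlated best with its own number, so the numbers are not taken to pair the livers.

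Scarce genes such as Gpr12, Zfp429, Gm10037 and Ptprt were under a mean of 50 and have no value there. The count models listed as alternatives were not run, and voom on the recovered reads stands in their place.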
